A study of Mus musculus with 2 samples.

Results

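Expression of 8 genes that act in or around Wnt signalling was described: Dkk2, Dkk3, Sfrp1, Wnt5a, Prickle1, Axin2, Sulf2 and Sulf1. They were taken by symbol, each of which named 1 row, from the 56941 genes of 2 single-cell RNA libraries, and they had been picked with earlier results of these libraries known, so the differences between the libraries are a description and carry no test. The libraries came from subcutaneous tumours of MC38, a mouse tumour line labelled as colon adenocarcinoma cells, grown in C57BL/6 mice. In the group labelled SPP1 the cells were a stable pool transduced with a lentivirus carrying SPP1 (osteopontin, a secreted glycoprotein), and in the group labelled Vector a stable pool with the control vector. The genotype was labelled WT in both. Treatment was shared: in both groups anti-PD-1, a blocking antibody to a checkpoint receptor on T cells, was given at 10 mg/kg on 2 days a week for 2 weeks from day 7 after injection, and 1 tumour, from 1 mouse, gave the library of each group. Differences between the mice, the cell pools and the library preparations cannot be told apart from the effect of the transgene.

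Wnt proteins are secreted lipid-modified ligands. In the canonical branch they bind a Frizzled receptor and Lrp5 or Lrp6, which stops the Axin- and Apc-containing complex from degrading β-catenin, and β-catenin then works with TCF/LEF factors on target genes. Other branches act through Ror and Ryk receptors or through the planar cell polarity proteins. Heparan sulfate on cell surfaces holds Wnt ligands, and its sulfation sets how tightly it does so. In colon tumours the canonical branch is often active without ligand because of mutations in its intracellular parts.

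Depth was alike: 164599332 UMIs over 14029 barcodes in the library labelled SPP1, and 164247003 UMIs over 14317 barcodes in the library labelled Vector. They shared 93 barcode sequences. After filters and removal of predicted doublets, 13501 cells of the library labelled SPP1 and 13820 of the library labelled Vector remained. Most of them, 9921 in the library labelled SPP1 and 9929 in the library labelled Vector, formed a large compartment that was high in Hmga2, Sox9 and Tafa1 and is called the compartment here. Its 10 colon epithelium markers summed to 5.06 CPM (UMIs of the gene per 1000000 UMIs of the class) in the library labelled SPP1 and 5.14 CPM in the library labelled Vector, with Krt20 and Cdx2 at 0 in both, so the labelled cell type was not borne out by these markers and the cells were given no cell type name. The labels do not give the species or the extent of the transgene, so counts of mouse Spp1 may not measure it. All kept cells together had 250 CPM of Spp1 in the library labelled SPP1 and 285 CPM in the library labelled Vector; compartment cells had 126 CPM of it in the library labelled SPP1 and 132 CPM in the library labelled Vector. Of the compartment's 10 clusters, cluster 4 held 2080 cells of the library labelled SPP1 and 88 of the library labelled Vector, and without it the order of the Spp1 levels turned, to 145 CPM in SPP1-labelled cells and 133 CPM in Vector-labelled cells. With 1 library per group, a state and a feature of that library cannot be told apart there, and the main values are therefore also given without cluster 4.

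The 8 genes differed in where most of their UMIs lay. For Dkk2, Prickle1, Wnt5a and Sulf2 the compartment held between 84.0% and 95.6% of each gene's UMIs in either library. These shares also reflect the size of the compartment. Sulf2 was less dense there than over all kept cells, which had 31.1 CPM in SPP1-labelled cells against 29.4 CPM in the compartment. In Vector-labelled cells these levels were 53.1 CPM and 50.6 CPM. Prickle1 had 99.8 CPM over all kept SPP1-labelled cells and 103 CPM in their compartment. In Vector-labelled cells it had 60.5 CPM and 62.6 CPM. Sfrp1 and Sulf1 were carried by fibroblast-like cells, 41 cells in the library labelled SPP1 and 39 in the library labelled Vector, which held 88.7% in SPP1-labelled cells and 92.8% in Vector-labelled cells of all Sfrp1 UMIs, and 86.3% in SPP1-labelled cells and 84.1% in Vector-labelled cells of all Sulf1 UMIs. Dkk3 was measured in both places at unlike density, and Axin2 had few UMIs in every class. Between the libraries Dkk2 and Prickle1 were higher and Sulf2 was lower in the library labelled SPP1, within the compartment. UMI counts are not corrected for how well each gene is captured, so levels are compared between cells and libraries and not between genes.

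**Figure D1:**
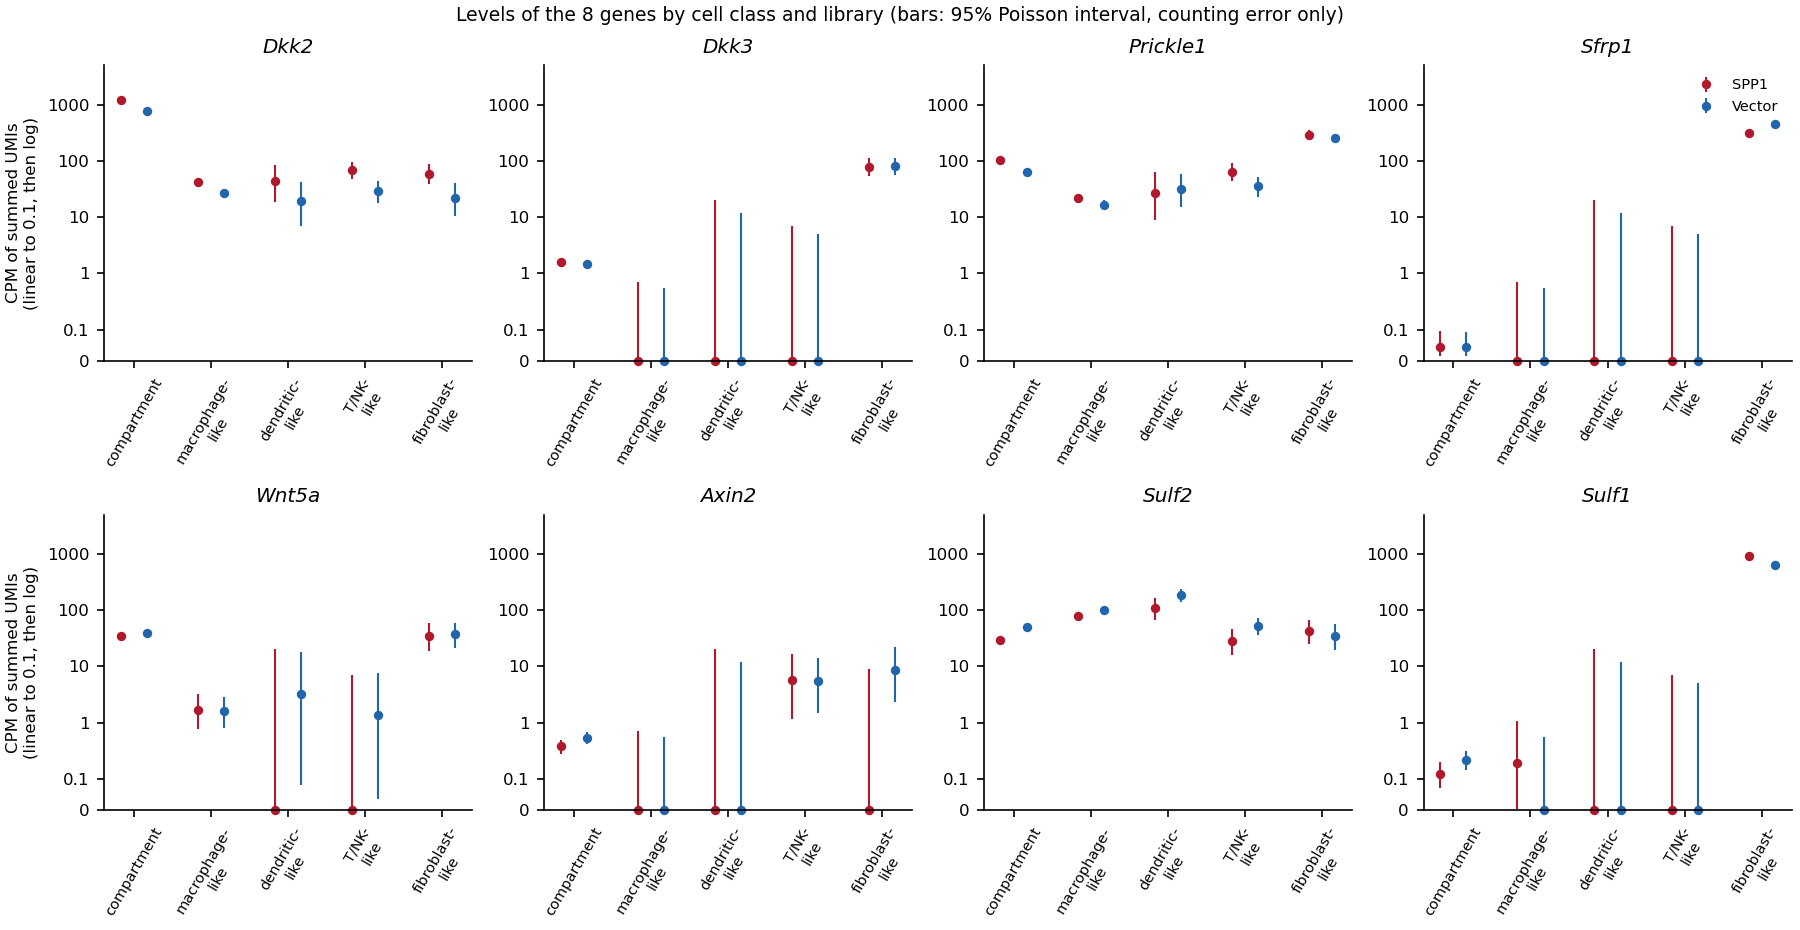
Level of each gene in CPM of summed UMIs (linear to 0.1 CPM, logarithmic above) by cell class, with the library labelled SPP1 to the left of the library labelled Vector and 95% Poisson intervals for counting error. Dkk2 stands in the compartment at 1189 CPM in SPP1-labelled cells and 763 CPM in Vector-labelled cells, and below 70 CPM in the 4 other classes drawn, while Sfrp1 and Sulf1 stand above 300 CPM in fibroblast-like cells alone among the classes drawn.

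Dkk2 (ENSMUSG00000028031) encodes a secreted Dickkopf protein that binds Lrp5 and Lrp6 and is best known as an antagonist of canonical Wnt signalling. In the compartment it stood at 1189 CPM (95% Poisson interval 1183 to 1195, counting error only) in the library labelled SPP1 and at 763 CPM (759 to 768) in the library labelled Vector. The log2 ratio of SPP1 over Vector was 0.64 (0.63 to 0.65). At least 1 Dkk2 UMI was seen in 94.9% of compartment cells of the library labelled SPP1 and in 91.4% of those of the library labelled Vector. With each cell thinned to 1000 UMIs, which left out 83 shallower cells labelled SPP1 and 59 labelled Vector, these shares were 55.1% (exact binomial interval 54.2% to 56.1%) in SPP1-labelled cells and 42.6% (41.6% to 43.6%) in Vector-labelled cells.

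In macrophage/monocyte-like cells Dkk2 lay near the level that free RNA of the compartment would give. T and NK-like cells, taken as a class that should lack the gene, held a thinned share of 5.36% in the library labelled SPP1 and 5.11% in the library labelled Vector. Their median depth was 3437 UMIs in SPP1-labelled cells and 3320 UMIs in Vector-labelled cells, and that of the compartment 12117 UMIs in SPP1-labelled cells and 12522 UMIs in Vector-labelled cells. Macrophage/monocyte-like cells (720 labelled SPP1 and 899 labelled Vector) had 41.3 CPM of Dkk2 in the library labelled SPP1 and 27.1 CPM in the library labelled Vector. If Hmga2, Sox9, Tafa1, Hoxa9 and Dkk2 had reached these cells in the compartment's own proportions, the level of those 4 genes there would carry along 48.4 CPM of Dkk2 in the library labelled SPP1 and 26.3 CPM in the library labelled Vector. Measured and carried-over levels were thus close. The Dkk2 ratio of 0.61 (0.32 to 0.90) in macrophage/monocyte-like cells is therefore not read as expression there, and its source was not tested.

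Prickle1 (ENSMUSG00000036158) encodes a cytoplasmic LIM-domain protein of the core planar cell polarity complex. Its compartment level was 103 CPM (101 to 105) in the library labelled SPP1 and 62.6 CPM (61.3 to 63.9) in the library labelled Vector, a log2 ratio of 0.72 (0.68 to 0.76). After thinning to 1000 UMIs the share of cells with a UMI of it was 9.66% in the library labelled SPP1 and 5.92% in the library labelled Vector. Fibroblast-like cells stood above the compartment, at 289 CPM (239 to 347) in the library labelled SPP1 and 254 CPM (210 to 304) in the library labelled Vector, and there the ratio of 0.19 had an interval that spanned 0 (-0.19 to 0.57).

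Unlike Dkk2, Prickle1 in immune cells lay above the carried-over level. Macrophage/monocyte-like cells had 21.5 CPM in the library labelled SPP1 and 16.6 CPM in the library labelled Vector, where carry-over by the 4 compartment genes would give 4.19 CPM in SPP1-labelled cells and 2.16 CPM in Vector-labelled cells. T and NK-like cells had 64.3 CPM in the library labelled SPP1, from 34 UMIs of which 3 cells held 55.9%, and 35.5 CPM in the library labelled Vector, from 26 UMIs. The carried-over levels there were 5.83 CPM in SPP1-labelled cells and 3.95 CPM in Vector-labelled cells.

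Because Dkk2 and Prickle1 were both higher in the library labelled SPP1, the 250 bases upstream of their annotated starts are shown, read from RefSeq on GRCm38.p6, which is an earlier build than the one the counts were made on. Prickle1 has 2 starts in that table, both on the minus strand of chromosome 15, and Dkk2 has 1, on the plus strand of chromosome 3. Capitals mark the letters CTTTGA or CTTTGT, or TCAAAG or ACAAAG on the other strand, which are the core letters that TCF/LEF factors bind; these 4 words do not overlap each other here.
Dkk2, chr3:132085042-132085291: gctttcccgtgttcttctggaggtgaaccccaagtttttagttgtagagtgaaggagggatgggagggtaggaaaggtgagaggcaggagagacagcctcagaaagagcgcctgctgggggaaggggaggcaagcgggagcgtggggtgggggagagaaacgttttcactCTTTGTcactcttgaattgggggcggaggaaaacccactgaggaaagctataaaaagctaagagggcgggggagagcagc
Prickle1 upstream start, chr15:93595903-93596152: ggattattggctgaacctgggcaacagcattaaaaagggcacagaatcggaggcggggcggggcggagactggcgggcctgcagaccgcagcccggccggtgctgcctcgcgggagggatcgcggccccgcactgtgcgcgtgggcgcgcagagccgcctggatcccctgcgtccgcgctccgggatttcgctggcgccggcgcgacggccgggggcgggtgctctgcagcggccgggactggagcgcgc
Prickle1 downstream start, chr15:93519521-93519770: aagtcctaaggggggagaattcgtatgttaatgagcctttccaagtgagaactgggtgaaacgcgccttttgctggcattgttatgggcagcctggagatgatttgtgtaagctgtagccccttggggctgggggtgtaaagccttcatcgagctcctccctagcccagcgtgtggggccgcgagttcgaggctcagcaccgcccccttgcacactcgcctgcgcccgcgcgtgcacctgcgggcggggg
The Dkk2 window held 1 match, beginning 80 bases before the start, and neither Prickle1 window held any. The 1 window of Axin2 and the 2 windows of Sulf2 held none either, and the 4 other genes are not in the table. Of all 32851 windows of this length, 9075 (27.6%) held at least 1 match, so a single match is common among promoters.

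Sulf2 (ENSMUSG00000006800) encodes an extracellular sulfatase that trims sulfate groups from heparan sulfate. In the compartment it was lower in the library labelled SPP1, at 29.4 CPM (28.5 to 30.3), than in the library labelled Vector, at 50.6 CPM (49.5 to 51.8), and the log2 ratio was -0.79 (-0.84 to -0.73). The gene was not particular to the compartment. Macrophage/monocyte-like cells held 78.4 CPM (71.1 to 86.3) in the library labelled SPP1 and 102 CPM (94.2 to 110) in the library labelled Vector, and carry-over would give less than 2 CPM in either. The log2 ratio there was -0.37, with an interval of -0.55 to -0.20, and -0.32 when the 8 sub-clusters of the class were weighted alike in both libraries. Dendritic cell-like cells held 108 CPM in the library labelled SPP1, from 20 UMIs in 26 cells, and 182 CPM in the library labelled Vector, from 57 UMIs in 44 cells.

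Sulf2 levels also differed among the sub-clusters of macrophage/monocyte-like cells. The sub-cluster led by Il1b, Clec7a and Ccr2, genes of inflammatory monocytes, held 142 CPM (111 to 178) in the library labelled SPP1 and 175 CPM (153 to 201) in the library labelled Vector. The one led by Mmp13, Hspa1a and Mmp12 held 43.1 CPM (29.1 to 61.6) in SPP1-labelled cells and 58.0 CPM (44.4 to 74.3) in Vector-labelled cells. These sub-clusters were made from the same cells, so the contrast between them is a description. The libraries filled them unequally: the Il1b-led one held 71 cells labelled SPP1 and 167 labelled Vector, and one led by F13a1, Fcrls and Pf4 held 160 labelled SPP1 and 68 labelled Vector. The Sulf2 ratio was below 0 in 8 of 8 sub-clusters, with its whole interval in 1.

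Wnt5a (ENSMUSG00000021994), a ligand that mostly signals through the Ror and planar polarity branches, stood at 34.9 CPM (34.0 to 35.9) in the compartment of the library labelled SPP1 and at 39.7 CPM (38.6 to 40.7) in that of the library labelled Vector, a log2 ratio of -0.18 (-0.24 to -0.13). It shrank to -0.09 without cluster 4. Fibroblast-like cells held a similar level, 34.6 CPM (18.9 to 58.1) on 14 UMIs in SPP1-labelled cells and 36.9 CPM (21.5 to 59.0) on 17 UMIs in Vector-labelled cells. In macrophage/monocyte-like cells its 1.70 CPM in the library labelled SPP1 and 1.62 CPM in the library labelled Vector lay close to the carried-over 1.42 CPM in SPP1-labelled cells and 1.37 CPM in Vector-labelled cells.

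Axin2 (ENSMUSG00000000142) encodes a scaffold of the β-catenin degradation complex and is itself a widely used target of canonical signalling. Only 52 UMIs in 9921 compartment cells of the library labelled SPP1 and 74 UMIs in 9929 of the library labelled Vector belonged to it. Those are levels of 0.376 CPM (0.281 to 0.493) in SPP1-labelled cells and 0.531 CPM (0.417 to 0.667) in Vector-labelled cells, and the log2 ratio of -0.50 had an interval that reached past 0 (-1.04 to 0.03). A UMI was seen in 0.494% of the SPP1-labelled and 0.695% of the Vector-labelled cells. The T and NK-like class had 3 Axin2 UMIs (5.67 CPM) in SPP1-labelled cells and 4 (5.46 CPM) in Vector-labelled cells. Fibroblast-like cells had 0 in SPP1-labelled cells and 4 (8.67 CPM) in Vector-labelled cells. Those densities are above that of the compartment but rest on these few UMIs.

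Dkk3 (ENSMUSG00000030772), a divergent Dickkopf protein, was faint in the compartment, at 1.61 CPM (1.41 to 1.84) in the library labelled SPP1 and 1.46 CPM (1.26 to 1.67) in the library labelled Vector. The log2 ratio of 0.15 had an interval that spanned 0 (-0.14 to 0.43). In fibroblast-like cells it reached 79.1 CPM (54.1 to 112) in SPP1-labelled cells and 80.2 CPM (56.5 to 111) in Vector-labelled cells, and 46.3% of those labelled SPP1 and 51.3% of those labelled Vector had a UMI. No Dkk3 UMI fell in macrophage/monocyte-like cells of either library, where 3 counts would be 0.566 CPM in SPP1-labelled cells and 0.442 CPM in Vector-labelled cells.

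Sfrp1 (ENSMUSG00000031548) encodes a secreted decoy with a Frizzled-like domain that binds Wnt ligands. It was nearly confined to fibroblast-like cells in these libraries: 309 CPM (257 to 368) in the library labelled SPP1 and 449 CPM (390 to 514) in the library labelled Vector, against 6 UMIs in the whole compartment of each. The fibroblast-like log2 ratio was -0.54 (-0.87 to -0.21), but 3 cells held 40.8% of the UMIs in the library labelled SPP1 and 3 cells held 64.7% in the library labelled Vector, where the highest cell alone had 58 UMIs. The counting interval does not cover that spread between cells. Without these 3 cells of each library the levels were 206 CPM in SPP1-labelled cells and 185 CPM in Vector-labelled cells, and the ratio turned to 0.16 (-0.33 to 0.64), so no direction is read for Sfrp1.

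Sulf1 (ENSMUSG00000016918), the second extracellular heparan sulfatase, had the same home. Fibroblast-like cells held 932 CPM (840 to 1031) in the library labelled SPP1 and 642 CPM (570 to 719) in the library labelled Vector, a log2 ratio of 0.54 (0.32 to 0.76), with 3 cells holding 40.8% of the UMIs in SPP1-labelled cells and 34.8% in Vector-labelled cells. Without those 3 cells of each library it was 0.32 (0.04 to 0.61). The compartment held 17 Sulf1 UMIs in SPP1-labelled cells and 30 in Vector-labelled cells, and 13 of the 30 lay in 1 cell of cluster 4. Pericyte/smooth muscle-like cells, 13 labelled SPP1 and 4 labelled Vector, held 10 Sulf1 UMIs in SPP1-labelled cells and 4 in Vector-labelled cells.

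Within the compartment the clusters stood for recognisable states. Cluster 1 was led by Aspn and Ogn, cluster 2 by Tafa1 with the replication genes Ung and Mcm2, cluster 3 by histone genes, cluster 5 by the mitotic genes Cdc20 and Cenpf, cluster 9 by Cryab and Hspa1b, cluster 10 by the interferon-induced Ifit1 and Ifit3, and cluster 12 by Cxcl10 and Gbp2. Cluster 4 was led by Pcdh9, Nrep and Magea9, cluster 6 by Ppm1n and Trim69 and cluster 7 by Fbxl7 and Slc7a2. On the log2 scale, relative to the whole compartment, the summed S-phase genes stood at 0.80 in cluster 3 and 0.78 in cluster 12. Mitotic (G2/M) genes stood at 1.67 in cluster 5, heat shock genes at 1.03 in cluster 9, and interferon genes at 2.95 in cluster 10 and 2.49 in cluster 12. Dkk2 was among the variable genes that shaped the clusters, whereas Prickle1, Wnt5a and Sulf2 were not. Clustering without any of the genes studied here gave a cluster whose overlap with cluster 4 was 0.82 of the union of their cells (Jaccard index) and which had a Dkk2 level of 1735 CPM in the library labelled SPP1.

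Dkk2 was highest in cluster 4, at 1735 CPM in the library labelled SPP1 and 1463 CPM in the library labelled Vector. Clusters 3 and 2 followed, at 1533 and 1305 CPM in the library labelled SPP1 and at 948 and 954 CPM in the library labelled Vector, where their intervals overlapped. At the low end of the library labelled SPP1 were cluster 12 at 586 CPM and cluster 7 at 570 CPM, with overlapping intervals. Cluster 9 was lowest in the library labelled Vector, at 498 CPM, below cluster 7 at 549 CPM. The highest cluster exceeded the lowest 3.05-fold in the library labelled SPP1 and 2.94-fold in the library labelled Vector.

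The Dkk2 difference between the libraries ran through most states. Its interval lay above 0 in 9 of 10 clusters and in 8 of the 9 other than cluster 4, and cluster 12 was the exception at -0.05 (-0.12 to 0.03). The log2 ratios were highest in clusters 5 and 3, at 0.71 (0.68 to 0.75) and 0.69 (0.67 to 0.72), and small in cluster 7, at 0.05 (0.01 to 0.10). Clusters 3, 5 and 12 were called cycling because S-phase or G2/M genes stood at least 0.5 above the compartment on the log2 scale. Cluster 7 fell short of that cutoff, at 0.43 for S-phase and 0.35 for G2/M genes. The ratio was thus not high in every cluster called cycling. Without cluster 4 the compartment's ratio was 0.50 (0.49 to 0.51).

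**Figure D2:**
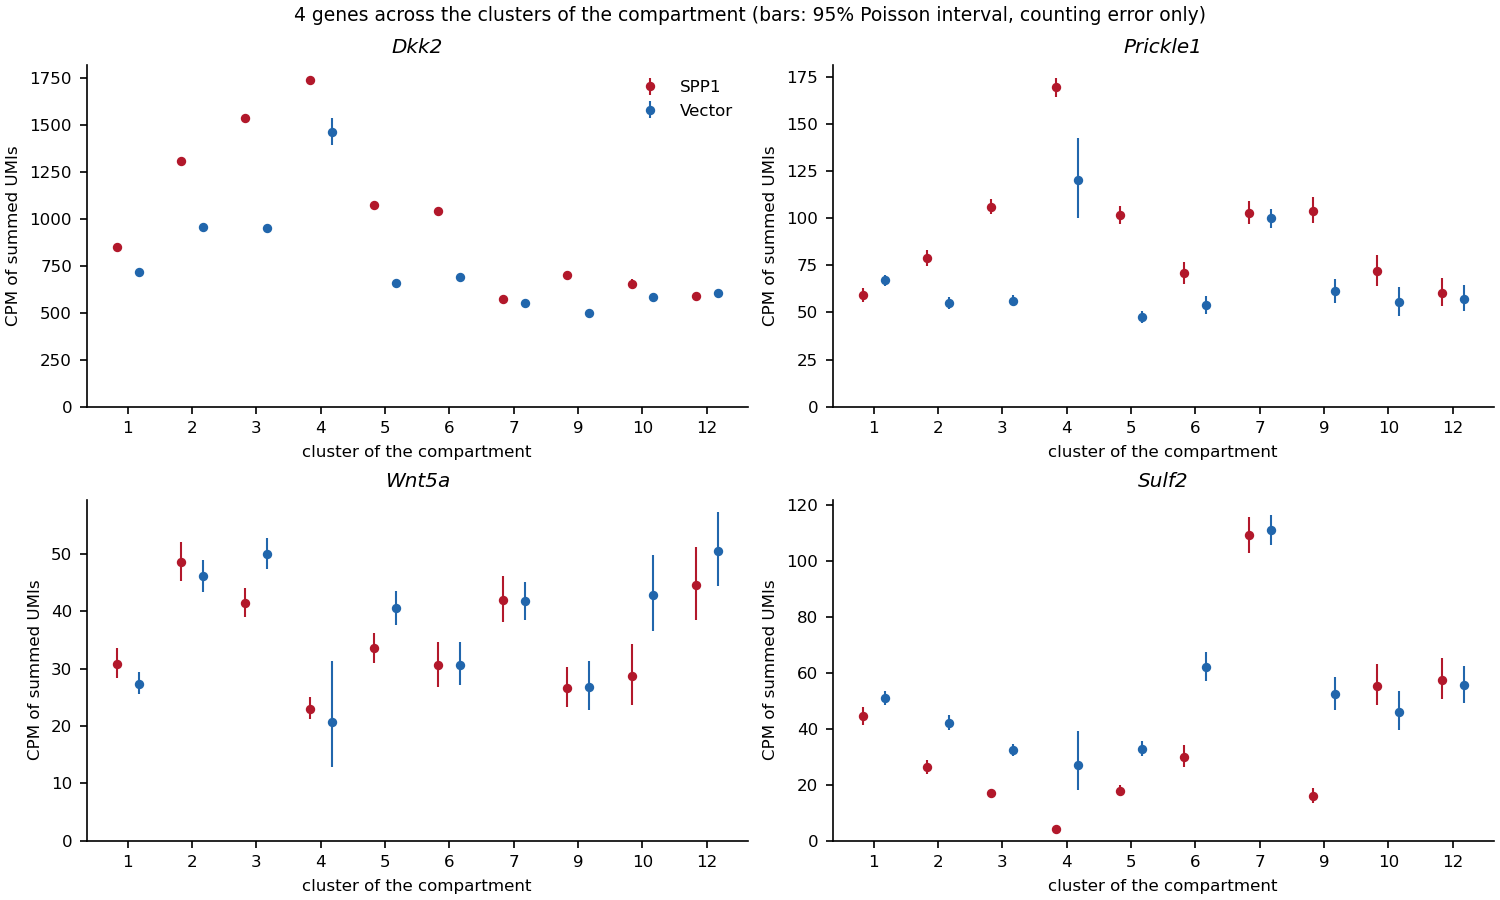
Level in CPM of summed UMIs of Dkk2, Prickle1, Wnt5a and Sulf2 in the 10 clusters of the compartment, with the library labelled SPP1 to the left of the library labelled Vector and 95% Poisson intervals. Cluster 4 is highest for Dkk2 and Prickle1 and lowest for Sulf2 in both libraries, and cluster 7 is highest for Sulf2. For Prickle1 in the library labelled Vector the interval of cluster 4 overlaps that of cluster 7.

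Prickle1 was highest in cluster 4 as well, at 170 CPM (164 to 175) in the library labelled SPP1 and 120 CPM (100 to 143) in the library labelled Vector. In the library labelled SPP1 clusters 3, 9, 7 and 5 came next with overlapping intervals, between 102 and 106 CPM, and cluster 1 was lowest at 59.1 CPM. In the library labelled Vector cluster 7 came next, at 100 CPM, with an interval that overlapped that of cluster 4, and the 8 other clusters lay between 47.4 and 67.0 CPM. By the share of cells with a Prickle1 UMI after thinning to 3000 UMIs, cluster 4 was not highest in that library. The share was 15.9% of its 82 cells, against 23.4% in cluster 7. The log2 ratio had an interval above 0 in 7 of 10 clusters, reaching 1.10 (0.99 to 1.22) in the mitotic cluster 5. In cluster 1 it lay below 0, at -0.18 (-0.29 to -0.07). Without cluster 4 the compartment's Prickle1 ratio was 0.51 (0.47 to 0.55).

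Sulf2 had the widest spread over the states among these 4 genes. Cluster 7 was highest, at 109 CPM (103 to 116) in the library labelled SPP1 and 111 CPM (106 to 116) in the library labelled Vector, and cluster 4 was lowest, at 4.33 CPM (3.54 to 5.24) in SPP1-labelled cells and 27.2 CPM (18.2 to 39.1) in Vector-labelled cells. The interval of cluster 4 in the library labelled Vector overlapped those of clusters 3 and 5. The highest cluster exceeded the lowest 25.2-fold in the library labelled SPP1 and 4.07-fold in the library labelled Vector. The interval of the log2 ratio lay below 0 in 7 of 10 clusters, among them cluster 9 at -1.72 (-2.02 to -1.42) and cluster 6 at -1.05 (-1.27 to -0.82). It spanned 0 in clusters 7, 10 and 12. Without cluster 4 the compartment's Sulf2 ratio was -0.55 (-0.60 to -0.49).

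Wnt5a followed another order. Clusters 12, 2, 3 and 7 were highest, between 41.5 and 48.6 CPM in the library labelled SPP1 and between 41.7 and 50.5 CPM in the library labelled Vector, with overlapping intervals between neighbours. Cluster 10 joined them in the library labelled Vector alone, at 42.8 CPM, and there the interval of cluster 5, at 40.5 CPM, overlapped that of cluster 7. Cluster 4 was lowest at 23.0 CPM in SPP1-labelled cells and 20.7 CPM in Vector-labelled cells. Its interval in the library labelled Vector overlapped those of clusters 9, 1 and 6. The interval of the Wnt5a log2 ratio lay below 0 in clusters 3, 5 and 10, between -0.58 and -0.27, and above 0 in cluster 1, at 0.17 (0.01 to 0.33).

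Cell by cell, Dkk2 counts spread more widely than counting error gives. After thinning to 3000 UMIs, the mean count was 3.34 per compartment cell in the library labelled SPP1 and 2.16 in the library labelled Vector. The variance was 3.89 times the mean in SPP1-labelled cells and 2.99 times in Vector-labelled cells, where Poisson counting alone gives a ratio near unity. Cells without a Dkk2 UMI made up 18.4% in SPP1-labelled cells, against 3.54% for a Poisson count of the same mean, and 27.3% in Vector-labelled cells, against 11.5%. At least 5 UMIs were held by 25.8% of SPP1-labelled cells and 13.2% of Vector-labelled cells. The top 10% of cells by count held 40.7% of unthinned Dkk2 UMIs in SPP1-labelled cells and 40.2% in Vector-labelled cells, so the share held by the highest cells was alike in both libraries. For Prickle1, with mean counts of 0.307 in SPP1-labelled cells and 0.193 in Vector-labelled cells, the variance was 1.39 and 1.36 times the mean. For Sulf2 the means were 0.0847 in SPP1-labelled cells and 0.160 in Vector-labelled cells, and the variance 1.23 and 1.21 times the mean. This ratio depends on the mean, so the genes are not ranked by it.

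**Figure D3:**
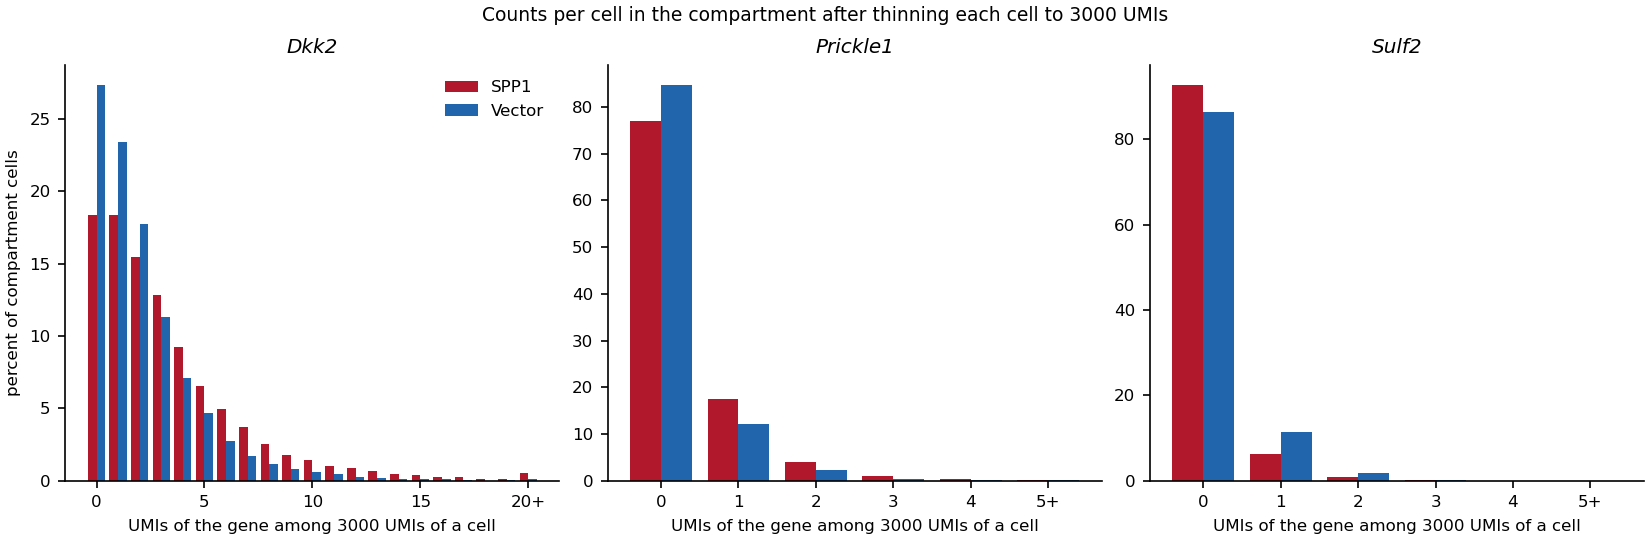
Percent of compartment cells by the number of UMIs of Dkk2, Prickle1 and Sulf2 among 3000 UMIs of the cell, with bars of the library labelled SPP1 to the left of those of the library labelled Vector. For Dkk2 the highest share of cells is at 0 in both libraries, with 18.4% of cells at 0 in the library labelled SPP1 and 27.3% in the library labelled Vector.

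Sulf2 was lower in cells with more Dkk2. In the library labelled SPP1, Sulf2 stood at 42.6 CPM (37.2 to 48.6) of thinned UMIs in cells without a Dkk2 UMI, at 36.1 CPM with 1 or 2, at 20.9 CPM with 3 to 5 and at 11.6 CPM (8.93 to 14.8) with 6 or more. The same steps in the library labelled Vector gave 66.0 CPM (60.4 to 71.9), 55.3, 42.5 and 33.2 CPM (26.4 to 41.3). The order was the same without cluster 4. Over single thinned cells Pearson's r between Dkk2 and Sulf2 counts was small, at -0.09 in SPP1-labelled cells and -0.06 in Vector-labelled cells. Without cluster 4 it was -0.08 in SPP1-labelled cells and -0.06 in Vector-labelled cells. The steps also pool cells of different clusters. Inside single clusters, Sulf2 was lower with 6 or more Dkk2 UMIs than with none in 10 of 10 clusters of the library labelled SPP1 and in 9 of 10 of the library labelled Vector, but the counts were small and the intervals were apart in 1 cluster of each. Median depth of the cells was higher along these steps, between 11666 and 14259 UMIs before thinning in the library labelled SPP1 and between 11629 and 14319 in the library labelled Vector, and its part in the result was not tested.

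**Figure D4:**
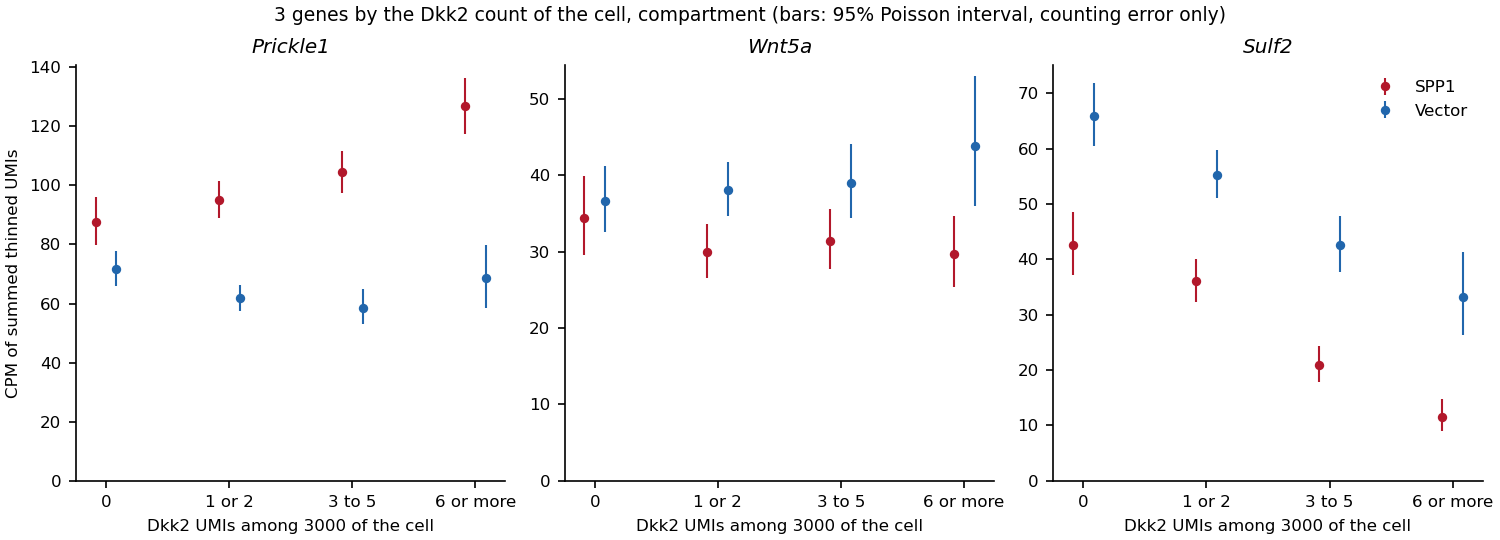
Level of Prickle1, Wnt5a and Sulf2 in CPM of thinned UMIs in compartment cells grouped by their own Dkk2 count among 3000 UMIs, with the library labelled SPP1 to the left of the library labelled Vector and 95% Poisson intervals. Sulf2 steps down in both libraries, while Prickle1 steps up in the library labelled SPP1 and not in the library labelled Vector.

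Prickle1 did not track Dkk2 in the same way in both libraries. In the library labelled SPP1 it stood at 87.6 CPM (79.7 to 95.9) in cells without a Dkk2 UMI and at 127 CPM (117 to 136) in cells with 6 or more, and without cluster 4 at 83.7 CPM (75.8 to 92.2) and 97.6 CPM (87.6 to 109), with overlapping intervals. In the library labelled Vector the same classes held 71.6 CPM (65.8 to 77.8) and 68.5 CPM (58.5 to 79.7). Across the 10 clusters, Pearson's r between log2 levels of Dkk2 and Prickle1 was 0.53 in the library labelled SPP1 and 0.40 in the library labelled Vector. Without cluster 4 it was 0.24 in the library labelled SPP1 and -0.36 in the library labelled Vector. For Dkk2 and Sulf2 it was -0.80 in the library labelled SPP1 and -0.68 in the library labelled Vector, and without cluster 4 -0.71 in the library labelled SPP1 and -0.55 in the library labelled Vector. These points share libraries and the clusters were drawn from the same cells, so the values are descriptions.

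Among 10721 genes with at least 1000 UMIs, those whose cluster pattern was most like that of Dkk2 were Cdh5 (mean r over the 2 libraries 0.87), Kcnab2, Tmeff1, Phldb2 and Ttll5 (0.84). For Prickle1 they were Tmsb4x (0.85), Rgcc, Grin2b, Ttll7 and Socs6 (0.79). For Sulf2 they were Epb41l4b (0.92), 9530026P05Rik, Slurp1, Rap1gap2 and Ass1 (0.87), and for Wnt5a Adss (0.93), Map3k5, 3110082I17Rik, Slc16a3 and Grwd1 (0.90). Each r rests on 10 clusters, and the genes are the highest of 10721, which by itself favours high values. Without cluster 4, r was 0.91 (SPP1) and 0.65 (Vector) for Cdh5, and 0.82 and 0.75 for Tmsb4x. It was 0.83 and 0.93 for Epb41l4b, and 0.92 and 0.89 for Adss. The lowest of all named was 0.56, for Socs6 in the library labelled Vector. Cdh5 had 272 UMIs in the compartment of that library.

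Other Wnt genes of the compartment were read from 7 lists of 144 genes, with a gene counted as past 1.5-fold when the counting interval of its ratio lay beyond that size. Of 15408 genes with at least 100 UMIs in the compartment, 267 (1.73%) were past 1.5-fold higher and 68 (0.441%) past 1.5-fold lower in the library labelled SPP1, and the median log2 ratio was 0.01. Among the 8 genes studied, 6 had at least 100 UMIs, of which Dkk2 and Prickle1 were past 1.5-fold higher and Sulf2 past 1.5-fold lower; they were picked for such differences, and nothing is read from that share. Without cluster 4 the background was 227 of 15176 genes (1.5%) higher and 39 (0.257%) lower, and the ratios of all 3 genes were smaller than 1.5-fold. The intervals of Dkk2 (0.49 to 0.51) and Prickle1 (0.47 to 0.55) lay wholly short of that size. The interval of Sulf2 (-0.60 to -0.49) reached past it. Of the 144 list genes 92 were measured, none was past 1.5-fold higher and 1 was past 1.5-fold lower. That gene was Ror1, a Wnt5a receptor, at 1.96 CPM in the library labelled SPP1 and 3.45 CPM in the library labelled Vector (log2 ratio -0.82, -1.04 to -0.60). Without cluster 4 its ratio was -0.77 and the count of lower list genes was 0. The interval lay above 0 for 20 and below 0 for 41 of the 92, with a median of -0.06. Over all 15408 genes it lay above 0 for 29.8% and below 0 for 29.6%, and the counts by list below stand against these shares. Without cluster 4 they were 29.4% above and 27.7% below. At these depths small ratios have intervals off 0, and nothing is read as particular to a list.

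**Figure D5:**
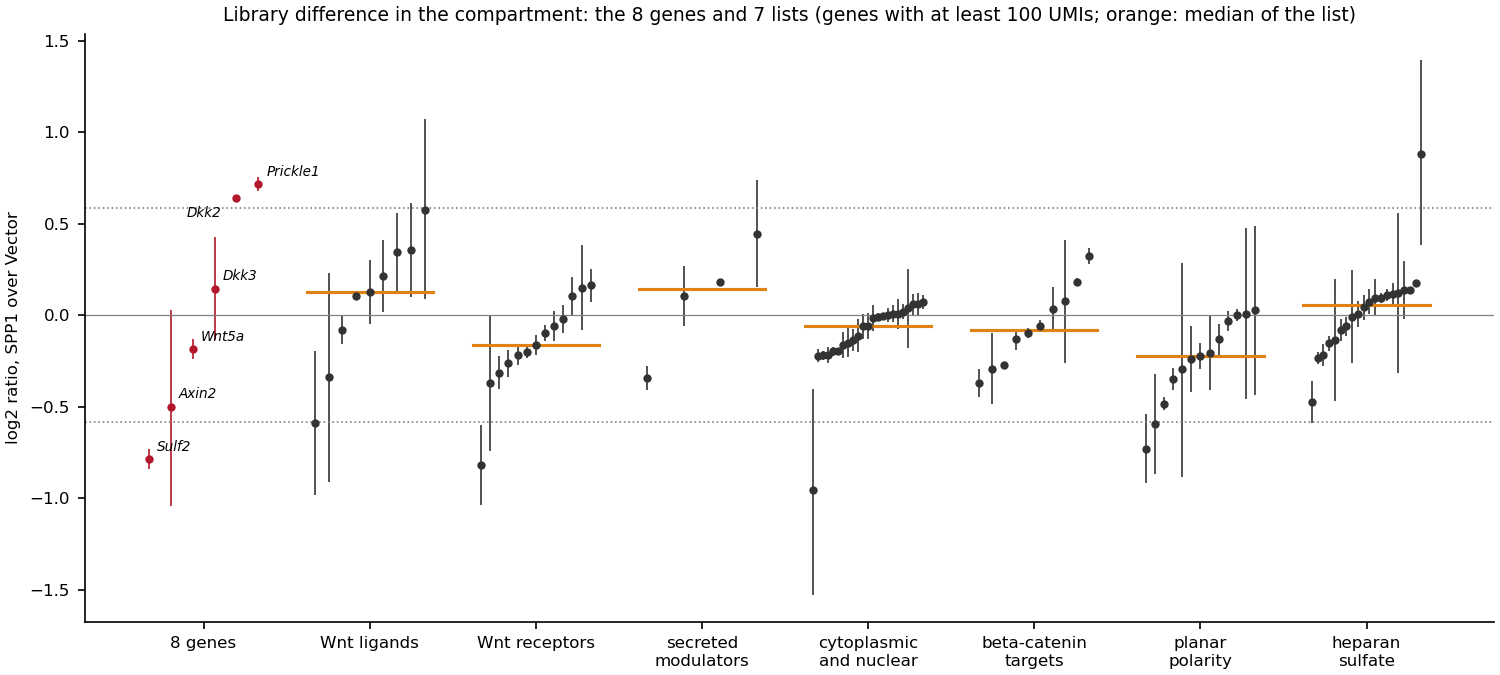
Log2 ratio of SPP1 over Vector in the compartment for the 8 genes (red, those with at least 100 UMIs) and for the measured genes of 7 lists (black), with 95% counting intervals, the median of each list in orange and dotted lines at a 1.5-fold ratio. Dkk2 at 0.64 and Prickle1 at 0.72 lie above the upper line with their whole interval, and Sulf2 at -0.79 and the receptor Ror1 at -0.82 lie below the lower one.

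Among ligands and their secretion, 9 of 20 genes were measured. Wls, the carrier needed for Wnt release, stood at 582 CPM in the library labelled SPP1 and 540 CPM in the library labelled Vector (log2 ratio 0.11, and -0.09 without cluster 4), and Wnt10b at 19.2 CPM in SPP1-labelled cells and 20.3 CPM in Vector-labelled cells. Wnt7b had a log2 ratio of 0.58 (0.09 to 1.08) on 89 UMIs in SPP1-labelled cells and 60 in Vector-labelled cells, and Wnt4 of -0.59 (-0.98 to -0.20) on 92 UMIs in SPP1-labelled cells and 139 in Vector-labelled cells. Of 18 receptors 13 were measured, with a median of -0.16. The interval lay below 0 for 8 of them and above 0 for 2, and the highest counts were those of Ryk, at 86.7 CPM in SPP1-labelled cells and 99.5 CPM in Vector-labelled cells, and Lrp6, at 58.6 CPM in SPP1-labelled cells and 62.5 CPM in Vector-labelled cells.

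The other secreted modulators were largely silent in the compartment. Only 4 of 20 were measured, and Dkk1, Dkk4, Sfrp5, Sostdc1 and Rspo4 had no UMI in either library, where 3 counts would be 0.0217 CPM in SPP1-labelled cells and 0.0215 CPM in Vector-labelled cells. Lgr4, an R-spondin receptor, stood at 24.2 CPM in the library labelled SPP1 and 30.7 CPM in the library labelled Vector (log2 ratio -0.34, -0.41 to -0.28), and Igfbp4 at 492 CPM in SPP1-labelled cells and 434 CPM in Vector-labelled cells (0.18, 0.17 to 0.20).

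All 23 cytoplasmic and nuclear components were measured, with a median of -0.06. Ctnnb1, which encodes β-catenin, stood at 353 CPM in the library labelled SPP1 and 405 CPM in the library labelled Vector (log2 ratio -0.20, -0.21 to -0.18). Gsk3b, the kinase of the degradation complex, had a ratio of -0.22 and Apc one of 0.07. The ratios in this list lay between -0.96 and 0.07, and none had its interval past 1.5-fold. Of 16 genes listed as β-catenin targets 10 were measured, and the interval lay below 0 for 6 and above 0 for 2, with a median of -0.08. Ccnd1, a cell-cycle driver, stood at 568 CPM in SPP1-labelled cells and 686 CPM in Vector-labelled cells (log2 ratio -0.27, and -0.16 without cluster 4), Tcf7 at 17.6 CPM in SPP1-labelled cells and 22.8 CPM in Vector-labelled cells (-0.37, -0.45 to -0.29) and the Wnt antagonist Apcdd1 at 64.7 CPM in SPP1-labelled cells and 51.6 CPM in Vector-labelled cells (0.32, 0.28 to 0.37). The 6 targets not measured, Nkd1, Nkd2, Sp5, Rnf43, Tnfrsf19 and Ascl2, had between 0 and 16 UMIs per library. Znrf3, a feedback ubiquitin ligase related to Rnf43 and named here after its values were seen, stood at 32.2 CPM in SPP1-labelled cells and 35.3 CPM in Vector-labelled cells (-0.13, -0.19 to -0.07).

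Planar polarity genes other than Prickle1 numbered 19, of which 13 were measured. The interval lay below 0 for 8 and above 0 for none, and the median was -0.22 with and without cluster 4. Prickle2, the closest relative of Prickle1, stood at 2.68 CPM in the library labelled SPP1 and 4.45 CPM in the library labelled Vector (log2 ratio -0.73, -0.92 to -0.54, and -0.47 without cluster 4). Fat1, a giant cadherin, stood at 74.4 CPM in SPP1-labelled cells and 104 CPM in Vector-labelled cells (-0.48, -0.52 to -0.45), and Daam1, a formin of this branch, at 106 CPM in both. Among 28 genes of heparan sulfate synthesis, core proteins and turnover 20 were measured, 7 with an interval above 0 and 6 below 0, and the median was 0.06. Hpse, the heparan sulfate-cleaving enzyme, had a log2 ratio of -0.47 (-0.59 to -0.36), and the core proteins Gpc5 0.88 (0.38 to 1.39, on 97 UMIs in SPP1-labelled cells and 53 in Vector-labelled cells) and Gpc6 -0.23 (-0.27 to -0.20).

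Markers of other cells differed in the compartment as well. The 11 fibroblast markers summed to 1933 CPM in the library labelled SPP1 and 1653 CPM in the library labelled Vector, the 12 macrophage/monocyte markers to 41.1 CPM in SPP1-labelled cells and 34.6 CPM in Vector-labelled cells, and the 8 endothelial markers to 16.1 CPM in SPP1-labelled cells and 7.51 CPM in Vector-labelled cells. Cdh5 made most of the endothelial difference, at 8.98 CPM in SPP1-labelled cells and 1.95 CPM in Vector-labelled cells. Over all 10 clusters together its pattern was the one most like that of Dkk2. The 7 other genes summed to 7.08 CPM in SPP1-labelled cells and 5.56 CPM in Vector-labelled cells. Dcn, a matrix proteoglycan, made most of the fibroblast difference, at 1126 CPM in SPP1-labelled cells and 875 CPM in Vector-labelled cells. Without cluster 4 the fibroblast sums were 1729 CPM in SPP1-labelled cells and 1643 CPM in Vector-labelled cells, and the endothelial sums 15.8 CPM in SPP1-labelled cells and 7.49 CPM in Vector-labelled cells. Sfrp1 and Sulf1, which mark the fibroblast-like cells here, stood near 0 in the compartment of both libraries. The part of fibroblast, macrophage/monocyte or endothelial cells in the ratios was not tested.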

How the data were processed

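Raw UMI counts per gene and barcode, with no normalization, were deposited by the authors for 2 libraries (1 tumour of 1 mouse each). Per the submitters' processing notes, Cell Ranger 2.1.1 and the build GRCm39 were used; the sources used here do not give the annotation release, the cell calling or any prior doublet or free RNA removal. The 8 genes, the gene lists and several thresholds were chosen with earlier results of these data known. The named list genes were the up to 2 with the highest CPM and up to 3 each way by ratio, and some of these are given.

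Filters required at least 300 genes, 500 UMIs and no more than 15% mitochondrial UMIs, and predicted doublets (simulated pairs, Otsu threshold) were removed: 455 (3.26%) in the library labelled SPP1 and 423 (2.97%) in the library labelled Vector. Counts were scaled to 10000 per cell and logged, and 30 components of 2000 variable genes (scanpy 1.11.5, scikit-learn 1.9.0) were joined over 20 neighbours and clustered with leidenalg 0.10.2 at resolution 1.0, with no batch integration. Of 11 marker lists, all but that of the compartment were used to name classes. A name required at least 3 markers and 50% of the list to be raised (10 CPM or more, and 1 or more on the log2 scale above the other cells). In the first clustering the mean log2 difference over the list also had to reach 2. Clusters without a name under 0.5 of the median depth were called low UMI. Named clusters were clustered again (15 components, resolution 1) and their sub-clusters named by the same rule without that mean. Sub-clusters, named or not, were called mixed where Hmga2, Sox9, Tafa1 and Hoxa9 reached 0.25 of their compartment level. The low UMI and mixed sets held 2349 and 298 cells in the library labelled SPP1. In the library labelled Vector they held 2386 and 324 cells, and they enter no comparison. UMIs were summed per class and library and given as CPM, with exact Poisson intervals; log2 ratios have exact conditional binomial intervals and shares exact binomial intervals, all at 95% and for counting error only. With 1 library per group there is no test, and cells were not used as replicates. A count of 0 was bounded by 3 counts. The ratio script was tested on simulated data. TMM factors came from edgeR 4.0.16. Promoter windows were read from a RefSeq table on GRCm38.p6, in which 4 of the 8 genes have entries.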

Additional observations from a re-analysis of the deposited data

Results flagged for a closer look

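The Dkk2 ratio pointed in opposite directions in different cell classes. Its log2 ratio of SPP1 over Vector was 0.640 in the compartment, 0.607 in macrophage/monocyte-like, 1.249 in T and NK-like and 1.453 in fibroblast-like cells, each with an interval above 0, and -1.45 (-2.97 to -0.09) in endothelial-like cells. That last value rests on 7 UMIs in 14 cells of the library labelled SPP1 and 16 UMIs in 16 cells of the library labelled Vector, of which 3 cells held 71.4% in SPP1-labelled cells and 75% in Vector-labelled cells. The differences between the classes were not tested. Outside the compartment most of these levels lay near or below what carry-over by the 4 compartment genes would give. They are not read as expression there, and their source was not tested. In T and NK-like cells Dkk2 had 68.1 CPM in SPP1-labelled cells and 28.6 CPM in Vector-labelled cells, against carried-over levels of 67.3 CPM in SPP1-labelled cells and 48.1 CPM in Vector-labelled cells. Fibroblast-like cells had 59.3 CPM in SPP1-labelled cells and 21.7 CPM in Vector-labelled cells, against 114 CPM in SPP1-labelled cells and 75.8 CPM in Vector-labelled cells. Endothelial-like cells stood above it, at 48.2 CPM in SPP1-labelled cells and 132 CPM in Vector-labelled cells, against 26.6 CPM in SPP1-labelled cells and 22.9 CPM in Vector-labelled cells.

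Prickle1 was lower in the library labelled SPP1 in compartment cluster 1, with a log2 ratio of -0.18, and higher in 7 other clusters, between 0.37 and 1.10. Wnt5a was higher there, at 0.17, and lower in 3 other clusters, between -0.58 and -0.27. Neither difference between clusters was tested.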

How the results depend on the processing

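Unless a class is named, log2 ratios of SPP1 over Vector here concern the compartment. Leaving out cluster 4 gave 0.50 for Dkk2, 0.51 for Prickle1 and -0.55 for Sulf2; with clusters weighted alike they were 0.42, 0.44 and -0.53. In 2 alternatives added after seeing the data, they were 0.46, 0.43 and -0.46 weighted alike without cluster 4, and 0.25, 0.50 and -2.65 in cluster 4 alone, where the Wnt5a ratio turned to 0.16 (-0.46 to 0.84). Without clusters 3, 5 and 12, which were called cycling, Dkk2 had 0.63 and Prickle1 0.62, and cluster 7 stayed in. Cells thinned to 1000 UMIs gave 0.68 for Dkk2 and -0.89 for Sulf2, the mean of CPM per cell 0.67 for Prickle1 and -0.85 for Sulf2, and all barcodes without filter or class 0.65 for Dkk2. Over all barcodes Dkk2 stood at 1118 CPM (SPP1) and 711 CPM (Vector), and Prickle1 at 99.5 CPM (SPP1) and 60.9 CPM (Vector). Shares of cells with a UMI at 3000 UMIs were 81.6% (SPP1) and 72.7% (Vector) for Dkk2 and 23.1% (SPP1) and 15.3% (Vector) for Prickle1. Unthinned they were 94.9% (SPP1) and 91.4% (Vector) for Dkk2 and 53.8% (SPP1) and 40.5% (Vector) for Prickle1. The ratio of the highest to the lowest cluster was 2.78 (SPP1) and 2.29 (Vector) for Dkk2, 2.67 (SPP1) and 1.88 (Vector) for Prickle1 and 20.5 (SPP1) for Sulf2 at resolution 0.5. At resolution 1.5 it was 5.01, 4.402 and 44.8 for the 3 genes in the library labelled SPP1, and 2.65 for Prickle1 when clustering left out the members and lists. At the lower fold tried 1 list gene was higher and 6 were lower; at 2-fold 0 were lower, as at 1.5-fold without cluster 4, against 1 in the report. Dkk2, Prickle1 and Sulf2 kept their direction under every alternative run. In fibroblast-like cells the Sfrp1 ratio turned to 0.16 without the 3 highest cells of each library, an alternative added after seeing the data. TMM and median-of-ratios scaling shifted all ratios by -0.003 and -0.009. No paired analysis was possible because each group has 1 library. Depth limits Axin2, Dkk3, Sfrp1 and Sulf1 in the compartment, and a single tumour per group limits every ratio.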

Other observations

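Cells set aside as low UMI or mixed enter no comparison of the report, and their values are given here. In the low UMI set (2349 cells in the library labelled SPP1 and 2386 in the library labelled Vector) Dkk2 stood at 977 CPM in SPP1-labelled cells and 571 CPM in Vector-labelled cells, with a log2 ratio of 0.77 (0.72 to 0.83), and Prickle1 had a ratio of 0.86 (0.69 to 1.04). Sulf2 had a ratio of -0.93 (-1.18 to -0.69) in the same cells. In the mixed set (298 cells labelled SPP1 and 324 labelled Vector) Dkk2 stood at 566 CPM in SPP1-labelled cells and 379 CPM in Vector-labelled cells. Endothelial-like cells held no Sulf2 UMI in either library, where 3 counts would be 20.7 CPM in SPP1-labelled cells and 24.7 CPM in Vector-labelled cells.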
